A study of Mus musculus with 24 samples.

Results

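The effect of the REV-ERB double knockout genotype (DKO) in CCR6 cells was set against its effect in DN cells, gene by gene, to find where it depended on the sorted population. Sorted lymphocytes of the small intestinal lamina propria were profiled by bulk RNA-seq, and the 12 libraries of these populations, of 24 in the study, made up the comparison. DKO mice carried Cre recombinase under Vav1 control together with floxed Nr1d1 and Nr1d2, and WT mice were littermates with the floxed genes; all were 8 to 12 weeks old. Cre driven by Vav1 is active throughout blood cells, so Cre was not restricted to the sorted populations. The groups, of 3 libraries each, were DKO CCR6, WT CCR6, DKO DN and WT DN. CCR6 is the chemokine receptor of lymphoid tissue inducer-like group 3 innate lymphoid cells (ILC3), and what the label DN stands for was not stated in the labels used. All 55487 genes of the count table were considered, and 21286 passed the expression filter and were tested. The quantity tested was the log2 fold change of DKO over WT in CCR6 minus the same fold change in DN, so that a positive difference means a higher DKO effect in CCR6.

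REV-ERBα and REV-ERBβ, encoded by Nr1d1 and Nr1d2, are nuclear receptors that repress transcription. They compete with ROR family activators for the same DNA element and close a feedback loop with BMAL1 and CLOCK, which bind E-boxes and drive the clock. ILC3 are tissue lymphocytes known for the cytokines interleukin 17 and interleukin 22.

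Libraries labelled DKO had more counts of both floxed genes, not fewer. Nr1d1 measured 1560.1, 1482 and 1459 CPM in the DKO CCR6 libraries, against 539.6, 585 and 599 CPM in the WT CCR6 libraries, and 1485, 1772 and 1705 CPM in the DKO DN libraries, against 386, 399 and 489 CPM in the WT DN libraries. Nr1d2 averaged 109.9 ± 35.3 CPM in DKO CCR6 and 37.6 ± 1.77 CPM in WT CCR6 libraries, and 90.9 ± 26.8 CPM in DKO DN and 31.1 ± 11.8 CPM in WT DN libraries (SD, n = 3 each). A count over the whole gene says nothing of single deleted exons, so the deletion itself was not checked, and all directions for DKO rest on the labels. The difference of the DKO effect between CCR6 and DN was -0.58 (95% interval -1.17 to 0.018, adjusted p = 0.79) for Nr1d1 and 0.00066 (95% interval -1.07 to 1.07, adjusted p = 1) for Nr1d2. Both are from edgeR's quasi-likelihood test, which gave every adjusted p below unless another method or a range over alternatives is named. Thra overlaps Nr1d1 by 263 exon bases on the opposite strand, and its DKO effect differed between the populations by 0.12 (95% interval -0.58 to 0.82, adjusted p = 1). Vav1, whose control elements drive Cre, differed by 0.018 (95% interval -0.39 to 0.43, adjusted p = 1).

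Il23r, an ILC3 gene for a chain of the interleukin 23 receptor, averaged 161 ± 15.7 CPM in DKO CCR6 and 318 ± 11.1 CPM in WT CCR6 libraries, and 99.1 ± 10.9 CPM in DKO DN and 187 ± 28.5 CPM in WT DN libraries. The populations differed in the sorting gene. Ccr6 measured 882, 702 and 714 CPM in the DKO CCR6 libraries, against 1305, 1476 and 1417 CPM in the WT CCR6 libraries, and 8.22, 12.8 and 10.6 CPM in the DKO DN libraries, against 39.8, 41.8 and 40.6 CPM in the WT DN libraries. Ncr1, the gene of NKp46, was at most 12.1 CPM in CCR6 libraries and lay between 29.1 and 63.1 CPM in DN libraries. T cell receptor complex genes were present in DN libraries at higher levels than in CCR6 libraries, and their values are given below. Marker lists of other cell types were not at 0. For ILC2, another class of innate lymphoid cells, 19 genes were summed. They reached 716.6 to 821 CPM in DKO CCR6 and 922.5 to 945.6 CPM in WT CCR6 libraries. In DN they reached 1048 to 1492 CPM in DKO and 1872 to 2469 CPM in WT libraries. Of the ILC2 markers, Gata3 averaged 406 ± 35.1 CPM in DKO CCR6 and 481 ± 42.4 CPM in WT CCR6 libraries. Its averages in DN were 688 ± 122 CPM in DKO and 1101 ± 152 CPM in WT libraries. The ILC2 markers Il13 and Il1rl1 were at most 3.8 and 8.33 CPM in any of the 12 libraries. The 14 B and plasma cell genes summed to 222 to 322 CPM in DKO CCR6 and 394 to 921 CPM in WT CCR6 libraries, and to 402 to 760 CPM in DKO DN and 512 to 585 CPM in WT DN libraries. The 18 epithelial genes summed to 21.96 to 47.7 CPM in DKO CCR6 and 12.6 to 47.1 CPM in WT CCR6 libraries, and to 46.9 to 99.1 CPM in DKO DN and 23.1 to 41.1 CPM in WT DN libraries. The 16 stromal and endothelial genes summed to 316 to 398 CPM in DKO CCR6 and 218 to 261 CPM in WT CCR6 libraries, and to 295 to 370 CPM in DKO DN and 161 to 186 CPM in WT DN libraries. The 22 myeloid genes summed to at most 76.4 CPM in any of the 12 libraries. The epithelial sums in DN and the stromal sums in both populations were thus higher in every DKO library than in every WT library. The B and plasma cell sums in CCR6 and the ILC2 sums in both populations were lower in every DKO library. The part of these lists in the results was not tested. The stromal gene Col1a1 was at most 1.2 CPM in any of the 12 libraries. The endothelial gene Pecam1 averaged 134 ± 27 CPM in DKO CCR6 and 159 ± 13.1 CPM in WT CCR6 libraries. In DN it averaged 132 ± 25 CPM in DKO and 113 ± 6.79 CPM in WT libraries, and DKO and WT overlapped in both populations. Within these lists Ms4a1, of B cells, and Epcam, of epithelium, stayed below 1 CPM in all 12 libraries, while the keratin gene Krt8 lay at 3.89 to 12.7 CPM in DKO CCR6 and 1.84 to 4.33 CPM in WT CCR6 libraries, and at 6.93 to 10.01 CPM in DKO DN and 0.564 to 2.31 CPM in WT DN libraries. Library depth, in units of 1e6 counts, was 41.7 to 62.9 in DKO CCR6, 51.6 to 84.4 in WT CCR6, 40.7 to 66.7 in DKO DN and 38 to 46.7 in WT DN. Whether each library came from its own animal is not in the labels, so the p-values reflect library-to-library spread, which may be technical. Levels are counts per 1e6 counts (CPM) after trimmed mean of M values scaling, given as mean ± SD of 3 libraries or per library. Effects are log2 fold changes ± SE. The SE was not taken from the fit. It is the absolute log2 fold change divided by the square root of the F statistic of edgeR's quasi-likelihood test. The intervals were built from this SE with a t quantile. Both are approximate, above all for effects near 0 and for genes with few counts.

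The DKO effect differed between CCR6 and DN in 27 genes, 0.127% of those tested. In 19 of them (0.0893%) the effect was higher in CCR6 and in 8 (0.0376%) it was lower. An unadjusted p under 0.05 was reached by 1384 genes, 6.5% of those tested. DKO against WT alone called 846 genes in CCR6 (3.97%), of which 411 (1.93%) rose and 435 (2.04%) fell. It called 602 in DN (2.83%), of which 317 (1.49%) rose and 285 (1.34%) fell. Of these, 357 were called in both populations, which is 42.2% of the CCR6 calls and 59.3% of the DN calls, and 355 of the 357 had the same sign. The other 2, Socs2 and Vsir, rose in CCR6 and fell in DN. Of the 734 genes called in 1 population alone, 21 passed the test of the difference itself. Among genes called in CCR6, 93.0% had the same sign in DN, and among genes called in DN, 94.5% had the same sign in CCR6. The CCR6 and DN fold changes share no libraries, and over the 1091 genes called in either they had a Pearson correlation of 0.778 and a Spearman correlation of 0.836 across genes, which are not independent replicates. For scale, the same test called 90 genes (0.423%) for NKp46 minus CCR6, 106 (0.498%) for NKp46 minus DN, 119 (0.559%) for NKp46 minus ILC1, 249 (1.17%) for CCR6 minus ILC1 and 73 (0.343%) for DN minus ILC1. A fit to the 12 CCR6 and DN libraries alone called 166 genes, the 27 among them, and DESeq2 called 169, again with the 27. Without WT ILC1 library 2, the shallowest of the 24 at 12.8 (1e6 counts), 68 genes were called. Leaving out 1 of the 12 libraries at a time gave 7 (without DKO DN library 3) to 25 calls (without WT CCR6 library 1).

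**Figure D1:**
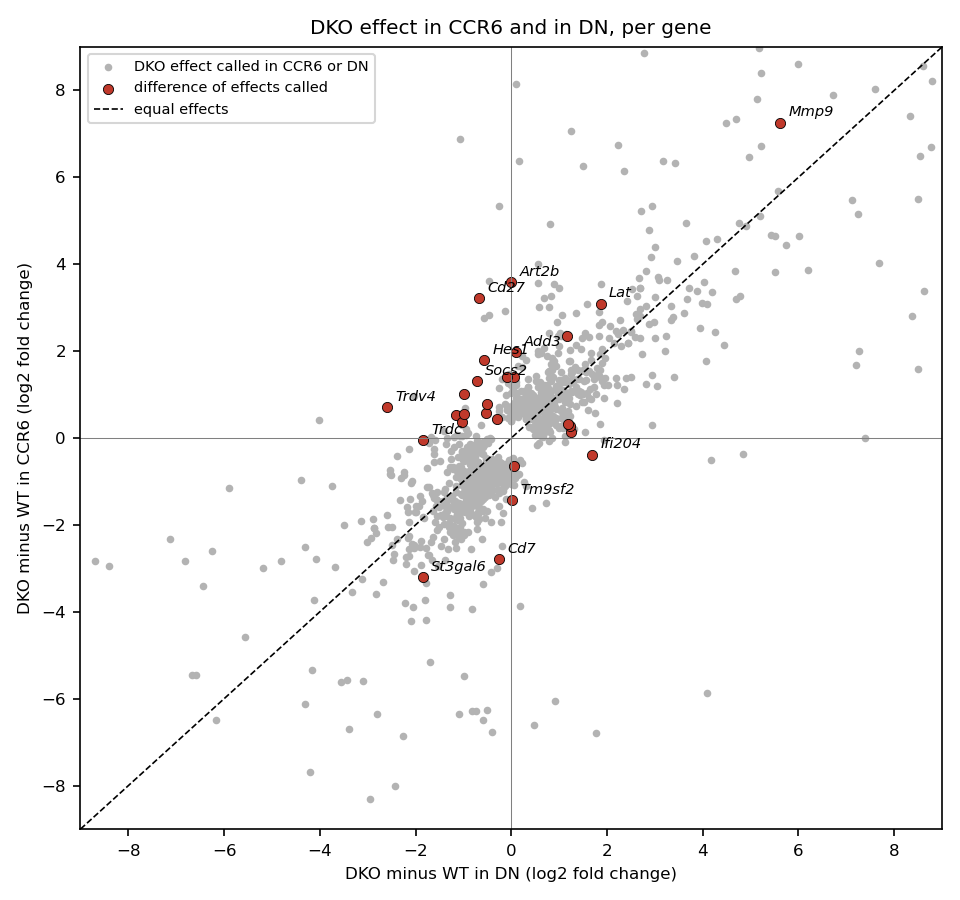
Log2 fold change of DKO over WT in CCR6 (vertical axis) against that in DN (horizontal axis) for the 1091 genes called in either population, with the 27 genes called for the difference in red and the line of equal effects dashed. Most points follow the dashed line, Cd7 and St3gal6 lie below it and Mmp9, Lat and Art2b above it, and 18 points lie beyond the axis limit of 9.

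RefSeq promoter windows of 300 bases (250 before the gene start and 50 after it, GRCm38.p6) were at hand for 18 of the 27 genes, 24 windows in all. The E-box CACGTG, the element of BMAL1 and CLOCK, stood in 4 of the 24 windows, 1 window for each of 4 genes. Of all 32851 windows, 7.15% held it. The element TAGGTCA, which REV-ERB and ROR proteins share, stood in 0 of the 24 windows and in 2.61% of all windows. The D-boxes TTATGTAA and TTACGTAA were likewise found in 0 of the 24, against 0.938% and 0.119% of all windows. Both strands were searched, and CACGTG reads the same on each. The 4 windows with an E-box are shown, in the direction of the gene with the E-box in capitals, because they belong to genes on both sides of the comparison: Add3 and Lat had the higher DKO effect in CCR6, and Eef2k and Fam184b the lower one.
Add3, chr19:53140193-53140492, plus strand: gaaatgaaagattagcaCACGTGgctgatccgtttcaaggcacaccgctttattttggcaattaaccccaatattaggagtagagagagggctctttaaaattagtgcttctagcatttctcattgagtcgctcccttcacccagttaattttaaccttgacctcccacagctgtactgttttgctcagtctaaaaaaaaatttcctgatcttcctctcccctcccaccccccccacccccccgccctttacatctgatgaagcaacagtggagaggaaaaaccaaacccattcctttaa
Lat, chr7:126369519-126369818, minus strand: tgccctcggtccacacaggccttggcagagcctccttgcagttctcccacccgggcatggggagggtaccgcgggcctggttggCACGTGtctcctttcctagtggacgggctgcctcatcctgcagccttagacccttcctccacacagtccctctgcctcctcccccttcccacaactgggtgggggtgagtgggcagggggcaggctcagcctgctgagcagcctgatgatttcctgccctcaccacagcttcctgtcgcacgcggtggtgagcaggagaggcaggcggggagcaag
Eef2k, chr7:120842581-120842880, plus strand: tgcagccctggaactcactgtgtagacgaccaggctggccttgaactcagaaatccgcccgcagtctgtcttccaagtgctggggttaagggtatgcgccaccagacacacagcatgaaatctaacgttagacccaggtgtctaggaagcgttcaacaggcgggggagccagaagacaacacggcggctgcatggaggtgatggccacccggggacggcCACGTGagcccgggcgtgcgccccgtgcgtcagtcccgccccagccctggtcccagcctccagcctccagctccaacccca
Fam184b, chr5:45639452-45639751, minus strand: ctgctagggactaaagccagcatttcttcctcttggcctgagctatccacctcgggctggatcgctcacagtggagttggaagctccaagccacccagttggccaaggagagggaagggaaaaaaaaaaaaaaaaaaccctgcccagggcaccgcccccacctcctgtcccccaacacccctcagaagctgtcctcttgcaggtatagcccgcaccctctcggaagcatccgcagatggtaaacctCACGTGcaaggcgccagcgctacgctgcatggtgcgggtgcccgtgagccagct
A match describes the letters of the window and was not tested for binding.

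Cd7 had the smallest adjusted p of the difference. It encodes an immunoglobulin superfamily receptor of T cells, natural killer cells and innate lymphocytes (ENSMUSG00000025163, chr11:121036747-121039418, minus strand, GRCm38). Cd7 measured 69.2, 56.7 and 69.3 CPM in the DKO CCR6 libraries, against 404, 551 and 398 CPM in the WT CCR6 libraries. In DN it measured 188, 207 and 199.9 CPM in the DKO DN libraries, against 209.8, 286 and 211 CPM in the WT DN libraries. The CCR6 groups were far apart, while the highest DKO DN library lay just under the lowest WT DN library. Cd7 fell by 2.79 on the log2 scale in CCR6, and in DN the change was -0.25 ± 0.16 (adjusted p = 0.62). The difference was -2.54 ± 0.23 (adjusted p = 4.9e-06). In DKO mice Cd7 was lower in CCR6 than in DN, and in WT mice it was higher in CCR6 than in DN.

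Ccnd2 and Add3 rose in CCR6 and did not pass the test in DN. Ccnd2, which encodes the G1 cyclin D2 (ENSMUSG00000000184, chr6:127125162-127152193, minus strand), measured 611, 606 and 601 CPM in the DKO CCR6 libraries, against 235, 219 and 234 CPM in the WT CCR6 libraries. The DN values were 855, 874 and 876 CPM in the DKO DN libraries, against 977, 722 and 795 CPM in the WT DN libraries, and these overlapped. The Ccnd2 effect was 1.40 ± 0.11 for CCR6 (adjusted p = 3.9e-08) and 0.063 ± 0.11 for DN (adjusted p = 0.93), a difference of 1.34 ± 0.16 (adjusted p = 0.00022). Exons of Ccnd2 share 740 bases with genes on the other strand. Add3, which encodes γ-adducin of the membrane skeleton (ENSMUSG00000025026, chr19:53140443-53247399, plus strand), measured 161, 154 and 150.5 CPM in the DKO CCR6 libraries, against 31, 40.6 and 46.3 CPM in the WT CCR6 libraries. In DN, Add3 measured 100.5, 82.6 and 65.5 CPM in the DKO DN libraries, against 88.7, 75.8 and 68 CPM in the WT DN libraries, again with overlap. The Add3 effect was 1.98 ± 0.20 for CCR6 (adjusted p = 6.3e-07) and 0.096 ± 0.19 for DN (adjusted p = 0.94), a difference of 1.88 ± 0.27 (adjusted p = 0.0033).

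Tm9sf2 showed the opposite pattern. It encodes a transmembrane protein of endosomes and the Golgi apparatus (ENSMUSG00000025544, chr14:122107038-122159604, plus strand). Tm9sf2 measured 119.7, 118 and 117 CPM in the DKO CCR6 libraries, against 296, 298 and 365 CPM in the WT CCR6 libraries. In DN it measured 88.3, 61.1 and 57 CPM in the DKO DN libraries, against 68.5, 81.6 and 53.9 CPM in the WT DN libraries. The CCR6 groups did not overlap and the DN groups did. Tm9sf2 fell by 1.44 on the log2 scale in CCR6, and in DN the change was 0.016 ± 0.16 (adjusted p = 0.99), which gave a difference of -1.45 ± 0.23 (adjusted p = 0.0098).

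Socs2 moved in opposite directions in the populations. Its product is a suppressor of cytokine signalling (ENSMUSG00000020027, chr10:95385362-95417180, minus strand). Socs2 measured 36, 47.1 and 63.9 CPM in the DKO CCR6 libraries, against 18.1, 19 and 22 CPM in the WT CCR6 libraries. In DN it measured 83.2, 89.7 and 110.4 CPM in the DKO DN libraries, against 132, 165 and 168 CPM in the WT DN libraries. Neither pair of groups overlapped: DKO was above WT in CCR6 and below WT in DN. The effect was 1.31 ± 0.17 for CCR6 (adjusted p = 2.4e-05) and -0.72 ± 0.17 for DN (adjusted p = 0.016), a difference of 2.03 ± 0.24 (adjusted p = 0.00022). Vsir, the gene of the inhibitory immune receptor VISTA, was the other gene of this kind. Vsir measured 44.1, 47.6 and 52.3 CPM in the DKO CCR6 libraries, against 31.4, 32.6 and 31.9 CPM in the WT CCR6 libraries. In DN, Vsir measured 78.5, 71.7 and 68.8 CPM in the DKO DN libraries, against 108, 93.3 and 114 CPM in the WT DN libraries. Its effect was 0.59 ± 0.14 for CCR6 (adjusted p = 0.011) and -0.52 ± 0.14 for DN (adjusted p = 0.034), a difference of 1.11 ± 0.19 (adjusted p = 0.019). Vsir lost its call without any 1 of 8 libraries, all but DKO CCR6 1, WT CCR6 1, DKO DN 1 and WT DN 2 (largest adjusted p = 0.088).

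**Figure D2:**
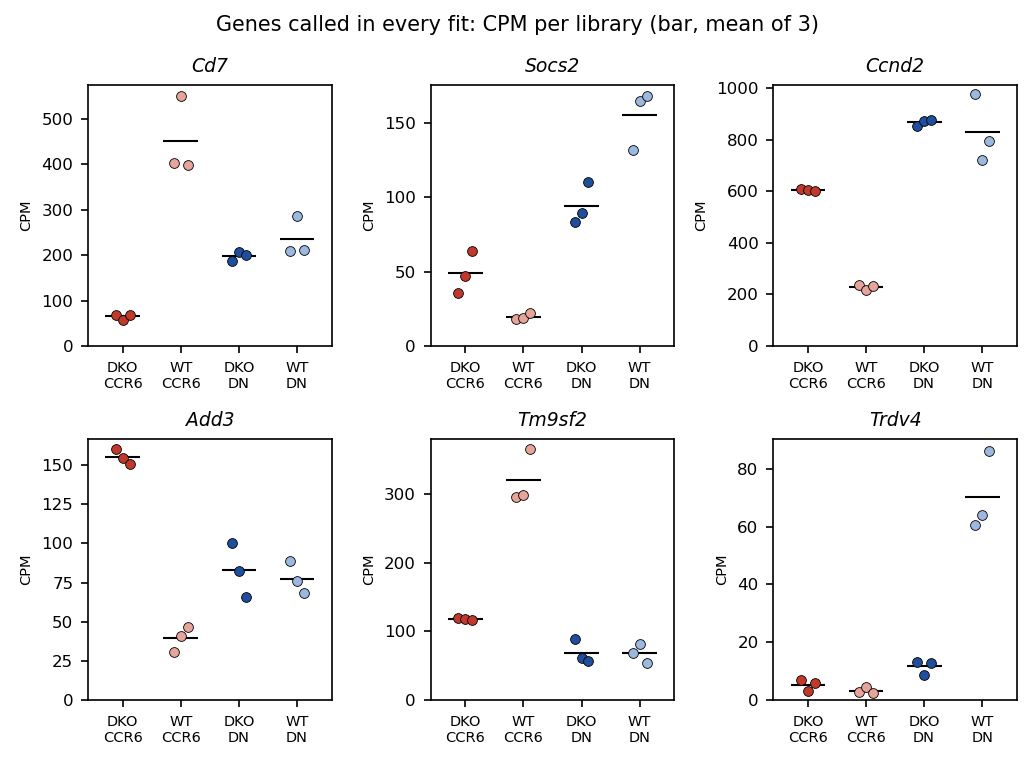
CPM of each of the 3 libraries per group (points, bar at the mean) for the 6 genes called in the main fit and in all 20 alternatives, with a vertical axis per gene that starts at 0. Cd7 and Tm9sf2 were lower in DKO than in WT CCR6 libraries, Ccnd2, Add3 and Socs2 were higher, and Trdv4 separated DKO from WT in DN alone.

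Art2b, Hes1, Cd27, Ltb4r1, Rhoc, Adgre5 and Bcl11b were also called in CCR6 and not in DN, all with the higher effect in CCR6. Art2b, the gene of an ADP-ribosyltransferase on the surface of lymphocytes, measured 34.5, 20.4 and 28 CPM in the DKO CCR6 libraries, against 1.33, 2.94 and 2.53 CPM in the WT CCR6 libraries. In DN the Art2b groups overlapped, at 75.7 ± 20.5 CPM in DKO DN and 75.8 ± 16.3 CPM in WT DN libraries. The effect was 3.59 ± 0.45 for CCR6 (adjusted p = 1.7e-05) and -0.0014 ± 0.40 for DN (adjusted p = 1), a difference of 3.59 ± 0.59 (adjusted p = 0.013). Art2b has a near-identical neighbour, Art2a, and reads may be split between them. Hes1, a Notch target that encodes a transcriptional repressor, measured 76.1, 93.9 and 84.9 CPM in the DKO CCR6 libraries, against 26.7, 27.4 and 19.9 CPM in the WT CCR6 libraries. In DN, Hes1 measured 167, 155 and 206 CPM in the DKO DN libraries, against 265, 339.9 and 178 CPM in the WT DN libraries. The effect was 1.79 ± 0.29 for CCR6 (adjusted p = 0.00037) and -0.57 ± 0.28 for DN (adjusted p = 0.42), a difference of 2.35 ± 0.40 (adjusted p = 0.016). Art2b lost its call without library DKO DN 2 and 3 (largest adjusted p = 0.061). Hes1 lost its call without library WT CCR6 3, DKO DN 2 and WT DN 2 (largest adjusted p = 0.058).

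Cd27, a costimulatory receptor of the TNF receptor family, had the most positive difference among the 27, at low levels. It measured 1.83, 5.74 and 3.94 CPM in the DKO CCR6 libraries, against 0.133, 0.341 and 0.716 CPM in the WT CCR6 libraries. The DN values were 20.8, 13.2 and 23.9 CPM in the DKO DN libraries, against 31, 30.8 and 30.8 CPM in the WT DN libraries. No DKO library overlapped a WT library in either population, though only the CCR6 change was called, at 3.23 ± 0.55 for CCR6 (adjusted p = 0.00073) against -0.68 ± 0.48 for DN (adjusted p = 0.69). The difference was 3.90 ± 0.73 (adjusted p = 0.03). Cd27 lost its call without any 1 of 10 libraries, all but DKO CCR6 1 and WT CCR6 3 (largest adjusted p = 0.13). It also lost its call without the expression filter and with limma voom.

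Ltb4r1, Rhoc and Adgre5 had differences between 0.74 and 1.49. Ltb4r1, the high-affinity receptor for leukotriene B4, averaged 114 ± 17.9 CPM in DKO CCR6 and 43.5 ± 4.31 CPM in WT CCR6 libraries, and 155 ± 27.4 CPM in DKO DN and 166 ± 31.5 CPM in WT DN libraries. Its difference was 1.49 ± 0.26 (adjusted p = 0.019). Rhoc, a small GTPase of the actin cytoskeleton, averaged 29.7 ± 7.14 CPM in DKO CCR6 and 17.3 ± 2.32 CPM in WT CCR6 libraries, and 32.1 ± 4.69 CPM in DKO DN and 45.9 ± 2.75 CPM in WT DN libraries. For Rhoc the difference was 1.30 ± 0.23 (adjusted p = 0.02). Adgre5, the adhesion G protein-coupled receptor CD97, averaged 102 ± 8.69 CPM in DKO CCR6 and 75.1 ± 5.86 CPM in WT CCR6 libraries, and 106 ± 1.04 CPM in DKO DN and 131 ± 6.59 CPM in WT DN libraries, a difference of 0.74 ± 0.14 (adjusted p = 0.03). Its exons share 895 bases with Ddx39 on the other strand, and Ddx39 differed by 0.012 (95% interval -0.39 to 0.42, adjusted p = 1). Ltb4r1 lost its call without library DKO CCR6 1, WT CCR6 2, DKO DN 3 and WT DN 3 (largest adjusted p = 0.086). Rhoc lost its call without any 1 of 8 libraries, all but DKO CCR6 2 and 3, WT CCR6 1 and WT DN 1 (largest adjusted p = 0.13). Adgre5 lost its call without any 1 of 11 libraries, all but DKO CCR6 1 (largest adjusted p = 0.17). It also lost its call without the expression filter (adjusted p = 0.462).

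Bcl11b and Klrb1b complete the genes called in CCR6 alone. Bcl11b, a transcription factor of T cells and ILC2, measured 13.6, 16 and 33.4 CPM in the DKO CCR6 libraries, against 11.1, 9.01 and 11.1 CPM in the WT CCR6 libraries. In DN, Bcl11b measured 40.9, 37.9 and 52.7 CPM in the DKO DN libraries, against 105, 86.4 and 67.1 CPM in the WT DN libraries. DKO was above WT in CCR6 and below WT in DN, though the DN change of -0.98 ± 0.28 missed the threshold (adjusted p = 0.063). The difference was 1.99 ± 0.39 (adjusted p = 0.042). Klrb1b, an inhibitory C-type lectin receptor of natural killer cells, averaged 415 ± 26.9 CPM in DKO CCR6 and 645 ± 41.6 CPM in WT CCR6 libraries, and 379.6 ± 9.98 CPM in DKO DN and 363 ± 37.6 CPM in WT DN libraries. Klrb1b fell by 0.63 on the log2 scale in CCR6, and the difference was -0.70 ± 0.13 (adjusted p = 0.031). It belongs to a family of similar genes and shares 599 exon bases with Gm44511 on its own strand. Bcl11b lost its call without any 1 of 10 libraries, all but DKO CCR6 1 and 2 (largest adjusted p = 0.16). Klrb1b lost its call without any 1 of 10 libraries, all but WT CCR6 1 and WT DN 3 (largest adjusted p = 0.17).

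Of the genes called in both populations with the same sign, 3 rose more in CCR6. Mmp9, a secreted matrix metalloproteinase, measured 1012, 829 and 721 CPM in the DKO CCR6 libraries, against 7.48, 3.69 and 5.6 CPM in the WT CCR6 libraries. In DN it measured 978, 941 and 790.0 CPM in the DKO DN libraries, against 21, 16.5 and 17.8 CPM in the WT DN libraries. The DKO libraries of both populations reached similar levels and the WT libraries did not, with WT CCR6 the lowest. The effect was 7.26 ± 0.24 for CCR6 (adjusted p = 1.3e-14) and 5.62 ± 0.22 for DN (adjusted p = 5.4e-13), a difference of 1.65 ± 0.27 (adjusted p = 0.01). On the CPM scale the order turned round, since the gain in CPM was 36.2 smaller in CCR6 than in DN. Mmp9 lost its call without library DKO DN 3 (largest adjusted p = 0.061).

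Lat and Rbpms2 were the others. Lat, the adaptor that links the T cell receptor to downstream signalling, measured 2203, 2159.6 and 2091 CPM in the DKO CCR6 libraries, against 289.8, 209.8 and 256 CPM in the WT CCR6 libraries. In DN, Lat measured 1579, 1941 and 1486 CPM in the DKO DN libraries, against 411, 423 and 538 CPM in the WT DN libraries. No groups overlapped between genotypes, and the effect was 3.10 ± 0.17 for CCR6 (adjusted p = 8.3e-11) and 1.87 ± 0.16 for DN (adjusted p = 1.4e-07), a difference of 1.23 ± 0.22 (adjusted p = 0.025). Rbpms2, an RNA-binding protein, averaged 221 ± 12.8 CPM in DKO CCR6 and 43.7 ± 5.62 CPM in WT CCR6 libraries, and 249.7 ± 34.4 CPM in DKO DN and 111 ± 28.7 CPM in WT DN libraries. Its effect was 2.34 ± 0.16 for CCR6 (adjusted p = 2.6e-09) and 1.16 ± 0.15 for DN (adjusted p = 5e-05), a difference of 1.18 ± 0.22 (adjusted p = 0.026). Lat lost its call without any 1 of 9 libraries, all but WT CCR6 1, DKO DN 2 and WT DN 1 (largest adjusted p = 0.13). Rbpms2 lost its call without any 1 of 10 libraries, all but WT CCR6 3 and WT DN 1 (largest adjusted p = 0.13).

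St3gal6 fell in both populations and further in CCR6. It encodes a sialyltransferase that takes part in making selectin ligands. St3gal6 measured 8.79, 7.44 and 8.63 CPM in the DKO CCR6 libraries, against 63.7, 72.2 and 91.5 CPM in the WT CCR6 libraries. In DN it measured 48.8, 38.5 and 61.2 CPM in the DKO DN libraries, against 163, 174 and 197 CPM in the WT DN libraries. It fell by 3.19 on the log2 scale in CCR6 and by 1.84 in DN, a difference of -1.35 ± 0.27 (adjusted p = 0.041). In CPM the loss was 60.8 greater in DN than in CCR6, so the order of the populations depends on the scale. Exons of St3gal6 share 1603 bases with Dcbld2 on the other strand, which averaged below 1 CPM in each of the 4 groups. St3gal6 lost its call without any 1 of 10 libraries, all but WT CCR6 1 and DKO DN 2 (largest adjusted p = 0.23).

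**Figure D3:**
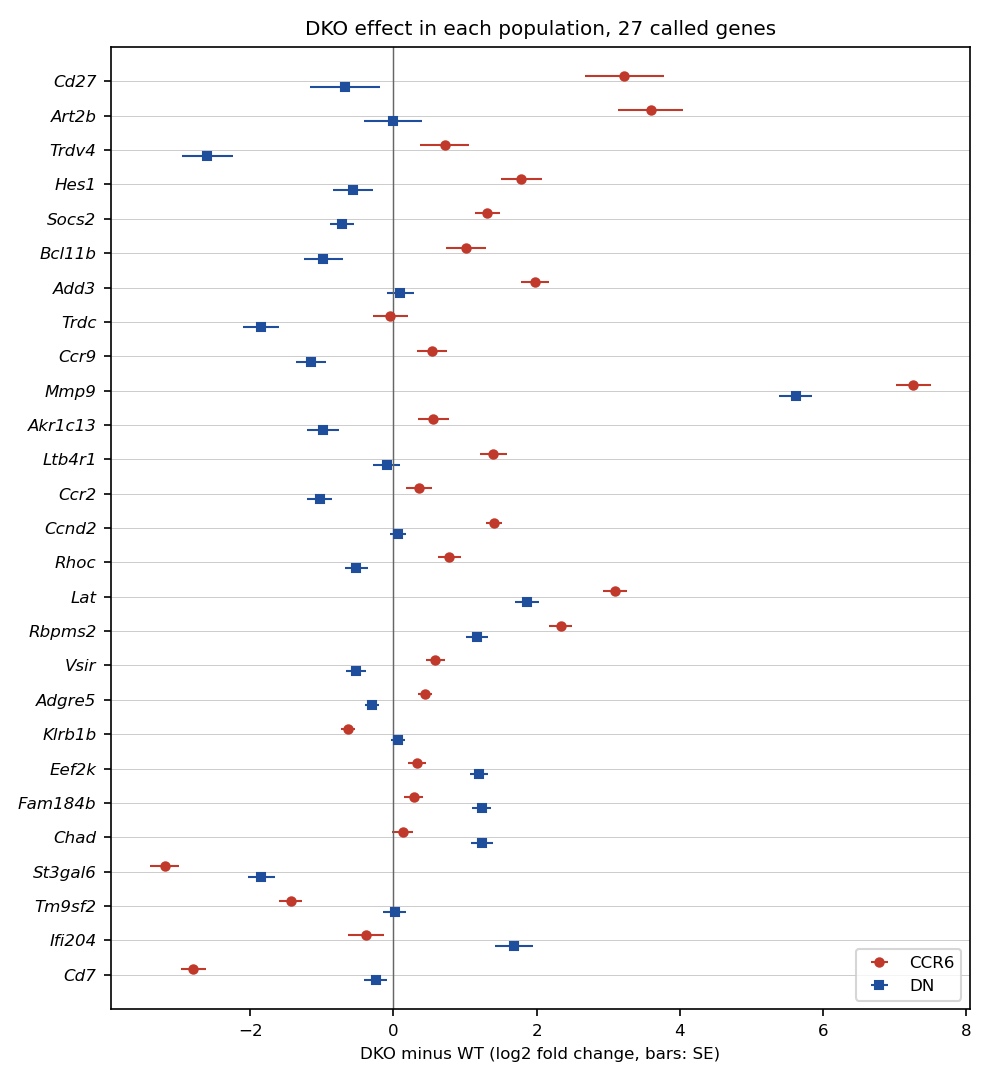
Log2 fold change of DKO over WT (horizontal axis, points with SE bars) in CCR6 (red circles) and in DN (blue squares) for each of the 27 genes called for the difference, ordered from the highest difference at the top to the lowest at the bottom. Cd27 stands at the top with 3.23 in CCR6 and -0.68 in DN, and Cd7 at the bottom with -2.79 and -0.25.

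In 9 genes the DKO change was called in DN and not in CCR6. Among them, 4 rose in DN. Chad, which encodes the extracellular matrix protein chondroadherin, measured 772, 558 and 505 CPM in the DKO CCR6 libraries, against 596, 591 and 492 CPM in the WT CCR6 libraries. In DN, Chad measured 785, 702 and 711 CPM in the DKO DN libraries, against 312, 287 and 332 CPM in the WT DN libraries. Overlap in CCR6 and none in DN went with effects of 0.13 ± 0.15 for CCR6 (adjusted p = 0.87) and 1.24 ± 0.15 for DN (adjusted p = 1.9e-05), a difference of -1.11 ± 0.21 (adjusted p = 0.034). Eef2k, the kinase that inhibits elongation factor 2, averaged 579 ± 36.1 CPM in DKO CCR6 and 462 ± 23.5 CPM in WT CCR6 libraries, and 608 ± 29.5 CPM in DKO DN and 266 ± 7.76 CPM in WT DN libraries. Its effect was 0.33 ± 0.12 for CCR6 (adjusted p = 0.19) and 1.19 ± 0.12 for DN (adjusted p = 1.8e-06), a difference of -0.87 ± 0.17 (adjusted p = 0.047).

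Fam184b and Ifi204 were the other genes that rose in DN. Fam184b, a gene of no well-established function, averaged 242 ± 17 CPM in DKO CCR6 and 199 ± 25.9 CPM in WT CCR6 libraries, and 222 ± 12.1 CPM in DKO DN and 94.5 ± 4.54 CPM in WT DN libraries. The difference was -0.95 ± 0.18 (adjusted p = 0.034), and its exons share 1798 bases with genes on the other strand. Ifi204, an interferon-inducible gene of a family of similar copies, measured 14.1, 16.1 and 17.4 CPM in the DKO CCR6 libraries, against 20.3, 21.1 and 20.7 CPM in the WT CCR6 libraries. In DN, Ifi204 measured 8.86, 9.98 and 13.8 CPM in the DKO DN libraries, against 3.09, 3.85 and 3.2 CPM in the WT DN libraries. The effect was -0.38 ± 0.26 for CCR6 (adjusted p = 0.63) and 1.69 ± 0.27 for DN (adjusted p = 0.00037), a difference of -2.07 ± 0.37 (adjusted p = 0.02). Chad lost its call without any 1 of 10 libraries, all but DKO CCR6 1 and WT CCR6 3 (largest adjusted p = 0.17). Eef2k lost its call without any 1 of the 12 libraries (largest adjusted p = 0.24). Fam184b lost its call without any 1 of 11 libraries, all but WT CCR6 1 (largest adjusted p = 0.19). Ifi204 lost its call without any 1 of 8 libraries, all but DKO CCR6 3, WT CCR6 1 and 3 and DKO DN 1 (largest adjusted p = 0.088).

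The other 5 fell in DN and did not pass the test in CCR6. They included the chemokine receptor genes Ccr9 and Ccr2. Ccr9, the receptor for the small intestinal chemokine CCL25, measured 80.4, 63.8 and 83.1 CPM in the DKO CCR6 libraries, against 33, 54 and 69.1 CPM in the WT CCR6 libraries. In DN, Ccr9 measured 323, 207 and 276 CPM in the DKO DN libraries, against 600.0, 597 and 596 CPM in the WT DN libraries. WT DN libraries stood above all others, and the effect was 0.54 ± 0.21 for CCR6 (adjusted p = 0.21) and -1.15 ± 0.21 for DN (adjusted p = 0.0019), a difference of 1.69 ± 0.30 (adjusted p = 0.019). Exons of Ccr9 share 1954 bases with Slc6a20a and a clone-named gene on the other strand, and Slc6a20a averaged 2.49 ± 0.734 CPM in DKO DN and 12.9 ± 6.36 CPM in WT DN libraries.

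Ccr2, the receptor for the monocyte chemoattractant CCL2, followed the same order. It measured 26.8, 25.2 and 19.9 CPM in the DKO CCR6 libraries, against 19.3, 18.5 and 18.2 CPM in the WT CCR6 libraries. In DN, Ccr2 measured 76.2, 52.1 and 72.7 CPM in the DKO DN libraries, against 137, 125 and 149 CPM in the WT DN libraries. The effect was 0.36 ± 0.18 for CCR6 (adjusted p = 0.41) and -1.03 ± 0.18 for DN (adjusted p = 0.0012), a difference of 1.39 ± 0.25 (adjusted p = 0.025). Akr1c13, an aldo-keto reductase with close paralogs, averaged 24.4 ± 5.04 CPM in DKO CCR6 and 16.5 ± 3.47 CPM in WT CCR6 libraries, and 31.8 ± 6.39 CPM in DKO DN and 62.9 ± 1.94 CPM in WT DN libraries. It fell by 0.98 on the log2 scale in DN, a difference of 1.54 ± 0.31 (adjusted p = 0.047). Ccr9 lost its call without any 1 of 8 libraries, all but DKO CCR6 2, WT CCR6 1 and 3 and DKO DN 1 (largest adjusted p = 0.086). Ccr2 lost its call without any 1 of 10 libraries, all but DKO CCR6 3 and DKO DN 1 (largest adjusted p = 0.13). Akr1c13 lost its call without any 1 of the 12 libraries (largest adjusted p = 0.23). Of 25 tested genes of chemokine receptors and homing, Ccr9 and Ccr2 were the ones called, both higher, against 0.0893% of all tested genes called higher. The median difference of the list was 0.129, against -0.00989 over all tested genes.

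Antigen receptor genes of the γδ lineage were the last of this class. Trdv4, a variable segment of the T cell receptor δ chain (ENSMUSG00000076867, chr14:54074905-54075515, plus strand), measured 7.03, 2.97 and 5.93 CPM in the DKO CCR6 libraries, against 2.72, 4.38 and 2.57 CPM in the WT CCR6 libraries. In DN, Trdv4 measured 13.3, 8.76 and 12.7 CPM in the DKO DN libraries, against 60.5, 63.8 and 86.3 CPM in the WT DN libraries. Trdv4 fell by 2.60 on the log2 scale in DN, and in CCR6 the change was 0.72 ± 0.34 (adjusted p = 0.37), a difference of 3.31 ± 0.49 (adjusted p = 0.004). Trdc, the constant region of the same chain, measured 37.1, 27.4 and 39.9 CPM in the DKO CCR6 libraries, against 29.8, 37.7 and 40.2 CPM in the WT CCR6 libraries. In DN, Trdc measured 67.8, 71.2 and 89 CPM in the DKO DN libraries, against 241, 257 and 325 CPM in the WT DN libraries. Trdc fell by 1.85 in DN, and the difference was 1.81 ± 0.35 (adjusted p = 0.034). WT DN stood apart from the other 3 groups for both genes. Trdc lost its call without any 1 of 11 libraries, all but DKO CCR6 2 (largest adjusted p = 0.16). In bulk libraries fewer cells that carry such transcripts and less RNA per cell cannot be told apart.

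The T cell list as a whole leaned to positive differences as well. Of its 23 members 20 were tested, and 3 were called higher for the difference (Lat, Cd27 and Trdc) and 0 lower, against 0.0893% and 0.0376% of all tested genes. By the tests within each population, Trdc fell in DN alone, while Lat rose in both and Cd27 rose in CCR6 alone. The median difference of the list was 1.45, against -0.00989 over all tested genes. For the difference, 15 of the 20 had an unadjusted p under 0.05, against 6.5% of all tested genes. In DN, 12 of the 20 fell and 1 rose, against 1.34% and 1.49% of all tested genes. In CCR6, 2 fell and 2 rose, against 2.04% and 1.93%. Cd3e, a chain of the CD3 complex, measured 92.4, 71.9 and 88.7 CPM in the DKO CCR6 libraries, against 97.1, 72.2 and 79.4 CPM in the WT CCR6 libraries. In DN, Cd3e measured 194, 148 and 201 CPM in the DKO DN libraries, against 591, 558 and 574 CPM in the WT DN libraries. WT DN was about level within itself and above every DKO DN library, and the CCR6 groups overlapped. Cd3e fell by 1.67 in DN, but its difference of 1.69 (95% interval 0.78 to 2.61, adjusted p = 0.21) missed the threshold.

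Other chains of the receptor complex were also highest in WT DN. Cd3g averaged 72.4 ± 5.72 CPM in DKO CCR6 and 75.3 ± 8.96 CPM in WT CCR6 libraries, and 175 ± 29 CPM in DKO DN and 530.3 ± 30.0 CPM in WT DN libraries, a difference of 1.54 (95% interval 0.77 to 2.31, adjusted p = 0.14). Cd247, the ζ chain, averaged 18.7 ± 0.69 CPM in DKO CCR6 and 25.2 ± 5.09 CPM in WT CCR6 libraries, and 22.2 ± 5.3 CPM in DKO DN and 116 ± 8.98 CPM in WT DN libraries, a difference of 1.96 (95% interval 0.82 to 3.11, adjusted p = 0.27). Exons of Cd247 share 3007 bases with Pou2f1 on the other strand. Trac, the α constant region, averaged 14.6 ± 4.23 CPM in DKO CCR6 and 17.3 ± 2.12 CPM in WT CCR6 libraries, and 74 ± 18.5 CPM in DKO DN and 225 ± 11 CPM in WT DN libraries, a difference of 1.36 (95% interval 0.49 to 2.23, adjusted p = 0.36). Each of the 3 fell in DN and did not pass the test in CCR6. In the fit to the 12 libraries alone 10 of the 20 list members were called higher and 1 lower, with DESeq2 6 and 1, and with limma voom 8 and 0. The summed level of the list was 3134 to 3270 CPM in DKO CCR6, 1340 to 1647 CPM in WT CCR6, 3292 to 3554 CPM in DKO DN and 4249 to 4756 CPM in WT DN, and Lat made up much of the DKO sums. No member of the list stood at 0 throughout the 12 libraries. The part of T cell transcripts in the other differences between CCR6 and DN was not tested.

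**Figure D4:**
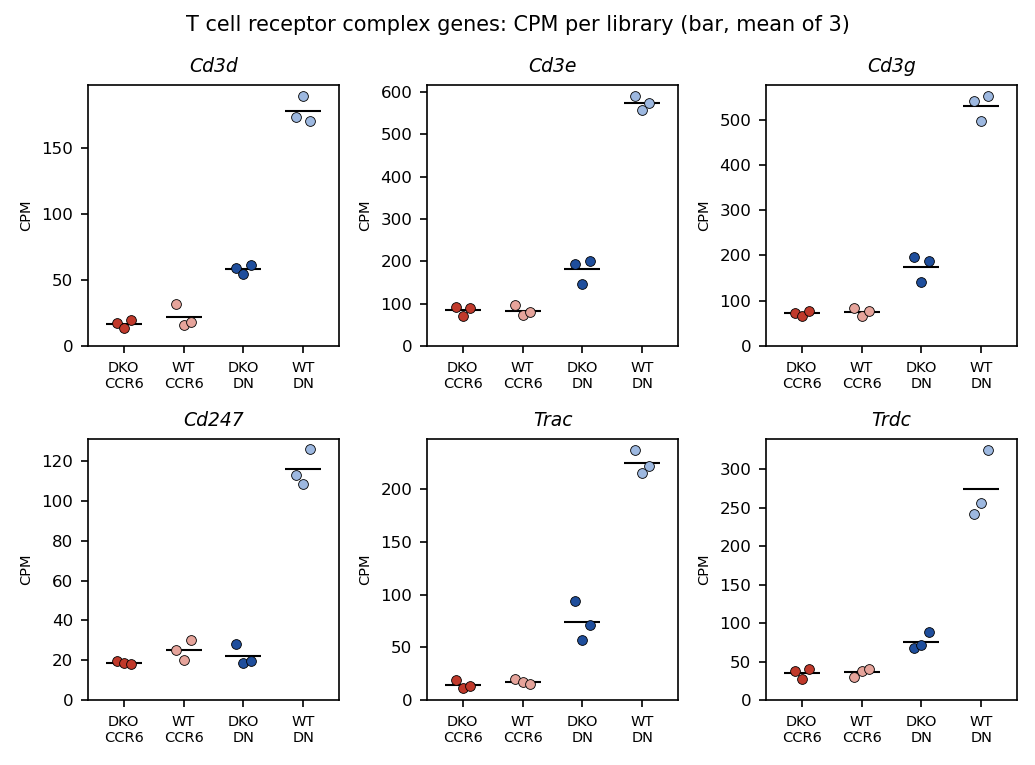
CPM of each of the 3 libraries per group (points, bar at the mean) for 6 genes of the T cell receptor complex, with a vertical axis per gene that starts at 0. WT DN libraries lie above the other 3 groups for all 6 genes, for example 558 to 591 CPM for Cd3e, and each DKO DN library lies below every WT DN library.

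Most of the 27 genes differed less between CCR6 and DN in DKO mice than in WT mice. The CCR6 minus DN gap was nearer to 0 in DKO for 25 of the 27 (92.6%), and for 60.8% of all tested genes. This count uses the libraries that chose the genes and is a description. All 19 genes with the higher effect in CCR6 were lower in CCR6 than in DN among WT libraries, and of the 8 with the lower effect, St3gal6 alone was. Of all 21286 tested genes, 10345 were lower in CCR6 than in DN among WT libraries. The WT libraries also helped choose the 27 genes, so these counts are a description too. For Art2b the gap was -1.45 in DKO and -5.05 in WT on the log2 scale. For Trdv4 it was -1.13 in DKO and -4.44 in WT, and for Tm9sf2 0.78 in DKO and 2.23 in WT. The exceptions were Cd7, at -1.61 in DKO and 0.94 in WT, and St3gal6, at -2.58 in DKO and -1.23 in WT.

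**Figure D5:**
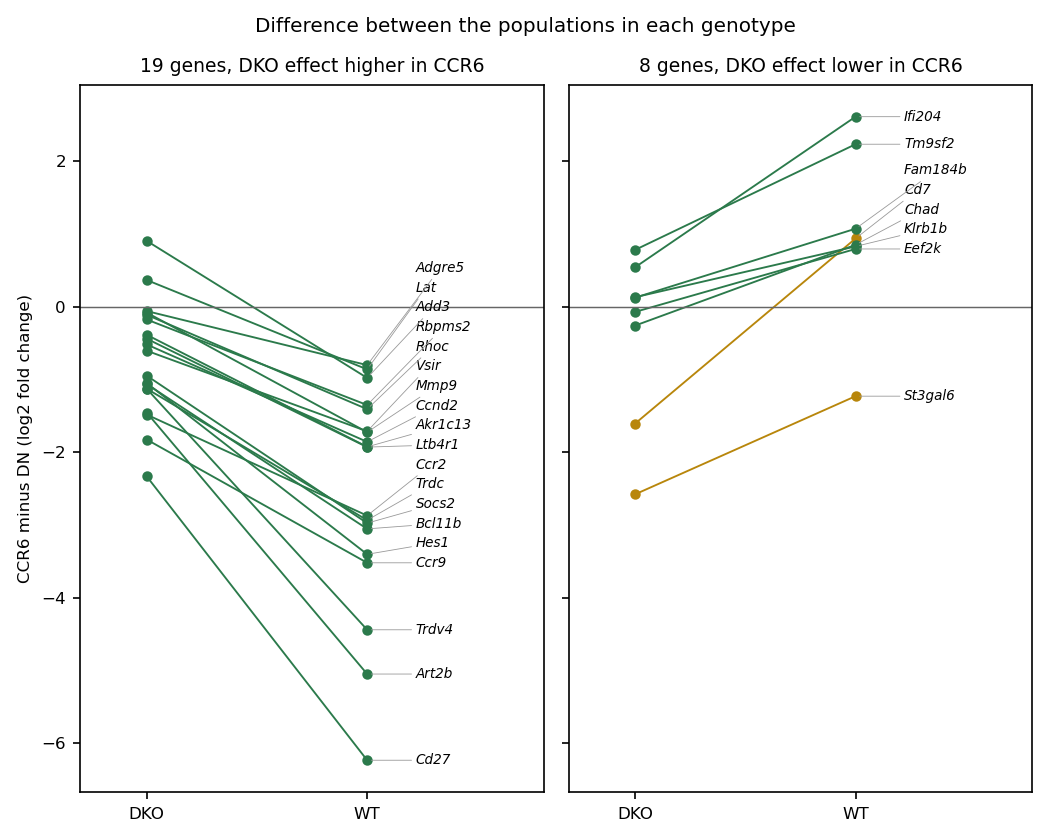
Log2 fold change of CCR6 over DN in DKO (left points) and in WT (right points) for the 19 genes with the higher DKO effect in CCR6 (left panel) and the 8 with the lower one (right panel). Green lines run nearer to 0 in DKO and gold lines, for Cd7 and St3gal6, run farther from 0.

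Clock genes gave no call for the difference. Of 17 tested core clock genes 8 rose and 1 fell in CCR6, against 1.93% and 2.04% of all tested genes, and 7 rose and 1 fell in DN, against 1.49% and 1.34%. For the difference 0 were called, against 0.127%, and 2 had an unadjusted p under 0.05, against 6.5%. Per3, a period gene, averaged 62.5 ± 6.97 CPM in DKO CCR6 and 6.58 ± 1.32 CPM in WT CCR6 libraries, and 55.2 ± 2.66 CPM in DKO DN and 6.86 ± 1.38 CPM in WT DN libraries, and its DKO effect differed by 0.24 (95% interval -0.58 to 1.06, adjusted p = 1). Bhlhe41, a repressor of the E-box, averaged 270.2 ± 19.8 CPM in DKO CCR6 and 0.722 ± 0.32 CPM in WT CCR6 libraries, and 209.7 ± 9.85 CPM in DKO DN and 0.538 ± 0.197 CPM in WT DN libraries, a difference of -0.031 (95% interval -1.33 to 1.27, adjusted p = 1). Npas2, a partner of BMAL1, differed by -0.26 (95% interval -1.57 to 1.05, adjusted p = 1). Ciart, a circadian repressor, differed by -0.40 (95% interval -1.13 to 0.34, adjusted p = 1). DESeq2, limma voom and the fit to 12 libraries also called 0 of the 17 core clock genes. These intervals leave room for differences of about the size of 1 log2 unit, and a missed threshold does not show that the effects were equal.

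Clock output genes gave 0 calls among 14 tested, against 0.127% of all tested genes, with 2 at an unadjusted p under 0.05, against 6.5%. Lpl was called by DESeq2 and in the fit to 12 libraries. Hlf and Dbp encode transcription factors that bind the D-box. Hlf averaged 147 ± 16.1 CPM in DKO CCR6 and 11.4 ± 4.96 CPM in WT CCR6 libraries, and 142 ± 17.8 CPM in DKO DN and 22.4 ± 2.17 CPM in WT DN libraries, a difference of 1.02 (95% interval 0.077 to 1.97, adjusted p = 0.71). Dbp averaged 86.4 ± 16.3 CPM in DKO CCR6 and 9.39 ± 5.01 CPM in WT CCR6 libraries, and 87.9 ± 10.2 CPM in DKO DN and 6.87 ± 1.79 CPM in WT DN libraries, a difference of -0.47 (95% interval -1.61 to 0.66, adjusted p = 1). Lpl, which encodes lipoprotein lipase, measured 49.3, 39.7 and 27.8 CPM in the DKO CCR6 libraries, against 1.1, 1.07 and 0.435 CPM in the WT CCR6 libraries. In DN, Lpl measured 83.5, 81.4 and 83.9 CPM in the DKO DN libraries, against 0.111, 0.245 and 0.335 CPM in the WT DN libraries. It rose in both, by 5.49 ± 0.47 for CCR6 (adjusted p = 7.3e-08) and 8.50 ± 0.56 for DN (adjusted p = 2.9e-09), and the difference of -3.00 (95% interval -4.35 to -1.66, adjusted p = 0.084) missed the threshold.

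Type 17 genes also gave 0 calls for the difference, among 28 tested, with 5 at an unadjusted p under 0.05. The shares over all tested genes were 0.127% and 6.5%. DESeq2 called Csf2 and Il12rb2 higher and Lta lower, and limma voom called Lta lower. Il17f, a cytokine of neutrophil recruitment, measured 854, 898 and 710.5 CPM in the DKO CCR6 libraries, against 119, 67.4 and 70.0 CPM in the WT CCR6 libraries. In DN, Il17f measured 661, 858 and 430.5 CPM in the DKO DN libraries, against 35.2, 14.1 and 21.8 CPM in the WT DN libraries. It rose in both, by 3.26 ± 0.56 for CCR6 (adjusted p = 0.00071) and 4.78 ± 0.60 for DN (adjusted p = 2.7e-05), a difference of -1.51 (95% interval -3.03 to 0.0036, adjusted p = 0.77). Il17a rose in neither by the test, and its difference was 1.01 (95% interval -0.80 to 2.83, adjusted p = 0.99). Il23r, a receptor chain for interleukin 23, differed by -0.072 (95% interval -0.63 to 0.49, adjusted p = 1).

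Csf2, Kit, Lta and H2-Ab1 are named after their values were seen. Csf2, the gene of GM-CSF, measured 83.7, 117 and 66.8 CPM in the DKO CCR6 libraries, against 47.3, 26.8 and 22.2 CPM in the WT CCR6 libraries. In DN, Csf2 measured 197, 187 and 149 CPM in the DKO DN libraries, against 194, 198 and 158 CPM in the WT DN libraries. It rose by 1.47 in CCR6 (adjusted p = 0.0026), and its difference was 1.52 (95% interval 0.68 to 2.35, adjusted p = 0.22). Csf2 passed the test of the difference with DESeq2 (adjusted p = 0.0466) and with a replicate block (adjusted p = 0.00658 with the number within genotype and 0.0277 with the number alone), and over its other alternatives the adjusted p was 0.0577 to 0.584. Kit, the stem cell factor receptor, averaged 474 ± 30.0 CPM in DKO CCR6 and 985 ± 133 CPM in WT CCR6 libraries, and 369 ± 70.6 CPM in DKO DN and 371 ± 63.1 CPM in WT DN libraries, a difference of -1.05 (95% interval -1.61 to -0.49, adjusted p = 0.19). Lta, the gene of lymphotoxin α, averaged 162 ± 14.3 CPM in DKO CCR6 and 211 ± 5.01 CPM in WT CCR6 libraries, and 119.5 ± 16.5 CPM in DKO DN and 86.8 ± 15.2 CPM in WT DN libraries, a difference of -0.84 (95% interval -1.28 to -0.40, adjusted p = 0.19). Lta passed it with DESeq2 (adjusted p = 0.0143), limma voom (0.0328) and the replicate block (0.0464 and 0.0248), and over its other alternatives the adjusted p was 0.0541 to 0.552. H2-Ab1, a chain of MHC class II, averaged 124 ± 16.1 CPM in DKO CCR6 and 289 ± 18.7 CPM in WT CCR6 libraries, and 30.1 ± 10.9 CPM in DKO DN and 33.8 ± 3.41 CPM in WT DN libraries, a difference of -1.05 (95% interval -1.74 to -0.36, adjusted p = 0.38). LTi-like genes gave 0 calls for the difference among 20 tested, with 5 at an unadjusted p under 0.05 and a median difference of -0.50. Over all tested genes these were 0.127%, 6.5% and -0.00989. DESeq2 and limma voom each called Kit and Lta lower, and the fit to 12 libraries called Kit and Cxcr5 lower and Ccr6 higher.

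The remaining lists held few calls. Over all tested genes 0.127% were called for the difference and 6.5% had an unadjusted p under 0.05. Among 31 ILC lineage transcription factors Bcl11b was called, higher, and 10 had an unadjusted p under 0.05. For this list limma voom and the fit to 12 libraries also called Sox13 higher, and DESeq2 called Tcf7 lower. Among 36 type 1 and cytotoxic genes Klrb1b was called, lower, and 12 had an unadjusted p under 0.05. DESeq2 called 1 of the 36 higher (Il12rb2) and 5 lower (Fasl, Gzma, Klrb1b, Klrb1c and Ncr1), and without WT ILC1 library 2 edgeR's test called Klrb1b and Ncr1. Of 22 inhibitory and costimulatory receptors Vsir and Cd27 were called, both higher. Ribosomal protein genes gave 0 calls among 25, with 5 at an unadjusted p under 0.05. Their median was 0.28, against -0.00989 over all tested genes, and all 25 differences were above 0. The reason was not tested. Glycolysis and lactate genes (24 tested), oxidative phosphorylation (23), cholesterol synthesis (20) and proliferation genes (24) each gave 0 calls by edgeR's test, with 2, 2, 1 and 2 at an unadjusted p under 0.05 and medians from -0.0803 to 0.055. By DESeq2 Slc16a3, a lactate transporter, and Ndufa1, a subunit of respiratory complex I, were called higher among these 4 lists. Slc16a3 was also called higher, and Cyp51, an enzyme of cholesterol synthesis, lower, in the fit to 12 libraries and without WT ILC1 library 2.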

How the data were processed

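RNA from sorted cells was made into libraries with a low-input SMARTer kit (10 ng of total RNA, 12 to 15 PCR cycles), per the labels' protocols. The authors deposited raw counts, whole numbers for each Ensembl gene that sum to different totals in each library. The mm10 build, STAR 2.7.9a and featureCounts 2.0.3 are named, among others, per the submitters' processing notes; the tool that made the table, strand setting, multi-mapped reads and annotation release: not given in the sources used here. PCR copies cannot be told from separate molecules. Of 55774 rows, 168 IDs stood on more than 1 row, and 1 row per ID was kept. With edgeR 4.0.16 in R 4.3.3, counts were scaled by trimmed mean of M values and filtered by group, and a quasi-likelihood model was fitted to all 24 libraries with 8 group means (16 residual degrees of freedom, common biological coefficient of variation 0.573). Adjusted p values of this fit are Benjamini-Hochberg over 21286 genes and a call is an adjusted p under 0.05. Fits that left out 1 of the 12 libraries were filtered anew and tested 22813 to 22908 genes. The fit without WT ILC1 replicate 2 tested 22740 genes, that without a filter 41644 and that to 12 libraries 19581. The part of these larger or smaller sets in lost or gained calls was not tested. A library titled nkp4 but described as nkp46 was taken as NKp46 and entered the fit only.

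Genes named are the deleted genes, Vav1, the sorting genes, called genes ranked by size (up to 15 each way) and by adjusted p (12), called members of 28 lists, and genes of opposite sign. Members and lists were chosen with earlier results of these data known, and genes outside the rule are named after their values were seen. Results of some genes are not reported here. No set test was run. Alternatives were DESeq2 1.42.0 and its size factors, limma 3.58.1 voom, no filter, the 12 libraries alone, a replicate block and leaving out libraries; the labels do not say that a replicate number marks an animal. The fit was tested on simulated counts. Gene positions are from GENCODE release M21 (GRCm38), in which 21256 of the tested genes were found, and promoter windows from RefSeq.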

Additional observations from a re-analysis of the deposited data

Results flagged for a closer look

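Each of the 27 genes is listed here because the effects of DKO against WT in CCR6 and in DN differed by a test of the difference itself, edgeR's quasi-likelihood test with an adjusted p under 0.05. The log2 differences, CCR6 minus DN, of the genes with the higher effect in CCR6 were 3.90 for Cd27, 3.59 for Art2b, 3.31 for Trdv4, 2.35 for Hes1, 2.03 for Socs2, 1.99 for Bcl11b, 1.88 for Add3, 1.81 for Trdc, 1.69 for Ccr9 and 1.65 for Mmp9. They were 1.54 for Akr1c13, 1.49 for Ltb4r1, 1.39 for Ccr2, 1.34 for Ccnd2, 1.30 for Rhoc, 1.23 for Lat, 1.18 for Rbpms2, 1.11 for Vsir and 0.74 for Adgre5. For the genes with the lower effect in CCR6 they were -2.54 for Cd7, -2.07 for Ifi204, -1.45 for Tm9sf2, -1.35 for St3gal6, -1.11 for Chad, -0.95 for Fam184b, -0.87 for Eef2k and -0.70 for Klrb1b. Trdv4, Trdc and Klrb1b belong to families of similar genes, and how reads that map to several places were counted is not given in the sources used here.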

How the results depend on the processing

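The 27 genes kept the sign of their difference under all 20 alternatives, and Add3, Ccnd2, Cd7, Socs2, Tm9sf2 and Trdv4 also kept their calls. The number of calls (higher and lower) was 62 (31 and 31) without the expression filter, 169 (80 and 89) with DESeq2, 71 (43 and 28) with limma voom, 166 (80 and 86) in the 12 libraries alone and 68 (43 and 25) without WT ILC1 replicate 2. Of the 27 genes, 22, 27, 25, 27 and 27 were among these. Without the filter edgeR's test lost Adgre5 (adjusted p = 0.462), Klrb1b (0.149), Cd27 (0.084), Vsir (0.054) and Art2b (0.0515). Limma voom lost Cd27 (adjusted p = 0.0577) and St3gal6 (0.0781). With DESeq2 size factors edgeR's test lost Bcl11b (adjusted p = 0.0511). The CCR6 calls were 1327, 1717 and 1738 with DESeq2, limma voom and 12 libraries, and the DN calls 1057, 1072 and 1414, and 918 without WT ILC1 replicate 2. Leaving out 1 of the 12 libraries at a time gave 7 (without DKO DN replicate 3) to 25 calls, 5 to 18 higher and 2 to 7 lower, and DN calls from 357 (without DKO DN replicate 2). The reasons for these shifts were not tested. Same-numbered libraries deviated together weakly (correlation at most 0.0448), and 11 of 12 correlated best with their own number; a replicate block gave 39 calls (number within genotype) or 34 (number alone) lost Bcl11b and gained 13 or 8 genes, with Csf2 and Lta among the gains of both. Genes not called changed sign near 0. Nr1d2 was -0.035 with DESeq2 and with its size factors, -0.058 without the filter, -0.068 with limma voom, -0.022 in 12 libraries, -0.0027 without WT ILC1 replicate 2 and -0.10 and -0.017 with the replicate block (number within genotype, number alone). Vav1 was -0.0078 with DESeq2 size factors, -0.032 without the filter and -0.0077 with DESeq2. Bhlhe41 was 0.075 with limma voom. Leaving out 1 library gave ranges of -0.34 to 0.25 for Nr1d2, -0.039 to 0.24 for Thra, -0.051 to 0.089 for Vav1, -0.73 to 0.043 for Dbp, -0.39 to 0.17 for Bhlhe41 and -0.20 to 0.011 for Il23r. In simulated data of 21286 genes, 100 genes were changed by each fold, drawn from genes with an average of at least 5 CPM. Of these, 12% of the 2-fold and 79% of the 4-fold differences were recovered by the fit to 24 libraries. Smaller differences may thus have been missed by this fit. Genes below that level were not among those changed, and the simulated spread followed the trend over genes.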

Other observations

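The DKO effects of these genes in the 2 other sorted populations were not part of the comparison, and each value below comes from its own test against WT, with no test of a difference. Hes1, which rose in CCR6 alone of the compared populations, also rose in NKp46 by 1.93 ± 0.29 (adjusted p = 0.00021) and in ILC1 by 2.94 ± 0.31 (adjusted p = 4.5e-06). Art2b rose in NKp46 by 2.95 ± 0.44 (adjusted p = 0.00019), and Cd27 by 2.60 ± 0.53 (adjusted p = 0.0049). Cd7, which fell in CCR6, rose in NKp46 by 0.82 ± 0.16 (adjusted p = 0.0033). Add3, which rose in CCR6, changed by -0.89 ± 0.19 (adjusted p = 0.0077) in NKp46 and -0.88 ± 0.19 (adjusted p = 0.022) in ILC1. Chad, Fam184b and Eef2k, whose rise was called in DN and not in CCR6, rose in the 2 others as well. Their changes in NKp46 were 1.31 ± 0.15 (adjusted p = 9.2e-06), 1.12 ± 0.13 (adjusted p = 1.1e-05) and 0.51 ± 0.12 (adjusted p = 0.019), and those in ILC1 were 1.56 ± 0.15 (adjusted p = 2.2e-06), 0.91 ± 0.13 (adjusted p = 0.00026) and 0.84 ± 0.12 (adjusted p = 0.00038). Ccr9, which fell in DN, changed by -1.06 ± 0.21 (adjusted p = 0.0037) in NKp46, while Trdv4 and Trdc passed the test in neither NKp46 nor ILC1.

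A further 28 genes missed the threshold in edgeR's quasi-likelihood test over 24 libraries but were called by the 12-library fit, by DESeq2 and by limma voom, 14 higher and 14 lower, and the genes named here were chosen after their values were seen. Cd163l1, a scavenger receptor of γδ T cells, measured 86.8, 92.6 and 163 CPM in the DKO CCR6 libraries, against 58.8, 37.9 and 78.8 CPM in the WT CCR6 libraries. In DN, Cd163l1 measured 58.7, 65.9 and 72.4 CPM in the DKO DN libraries, against 223, 213 and 368 CPM in the WT DN libraries. Ephx1, an epoxide hydrolase, averaged 48.4 ± 7.71 CPM in DKO CCR6 and 4.43 ± 0.615 CPM in WT CCR6 libraries, and 35 ± 6.85 CPM in DKO DN and 17.6 ± 2.29 CPM in WT DN libraries. Plcg2, a phospholipase of receptor signalling, averaged 199.9 ± 6.38 CPM in DKO CCR6 and 417 ± 59.5 CPM in WT CCR6 libraries, and 178 ± 16.3 CPM in DKO DN and 199 ± 23.1 CPM in WT DN libraries. Fez1 had 0 counts in the DKO CCR6 libraries, against 9.10, 6.23 and 8.06 CPM in the WT CCR6 libraries, and averaged 1.42 ± 0.474 CPM in DKO DN and 1.72 ± 0.146 CPM in WT DN libraries.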
